A study of Homo sapiens with 2 samples.

Results

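The integrated stress response factors described here are 10 genes of the ATF4 pathway, taken from the deposited expression table by gene name: ATF4, ATF5, ATF3, DDIT3, CEBPB, CEBPG, TRIB3, CHAC1, PPP1R15A and DDIT4. Each stood on 1 row, and all 10 were among the 11645 of 50229 gene symbols that reached an FPKM (fragments per kilobase, scaled by the authors to the depth of each library) of 1 in at least 1 library. The RNA came from ARP1, an established human line of multiple myeloma, a cancer of antibody-secreting plasma cells. Poly(A) RNA was sequenced as paired ends in 1 library whose label gives VCP knockdown (named siVCP here) and 1 whose label gives control (named siNC here). Both libraries share the cell line and the protocol, and the labels give no other agent, allele, time or dose. VCP encodes p97, an ATPase that pulls ubiquitin-marked proteins out of membranes and complexes.

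The integrated stress response starts when a kinase such as PERK, GCN2, PKR or HRI phosphorylates the alpha subunit of the initiation factor eIF2. Most translation then slows, while messengers with certain upstream reading frames, ATF4 among them, are translated more. ATF4 switches on genes for amino acid supply together with further factors such as ATF3 and CHOP (the product of DDIT3), and PPP1R15A closes the loop by bringing a phosphatase to eIF2alpha. Plasma cells make large amounts of secreted protein, and their stress signalling has been studied for this reason. The values below are RNA levels, which do not show how much of each messenger was translated.

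Part of the known control of these genes lies in short sequence elements, so those shared by members are printed before the levels. Among the annotated transcripts of GENCODE 29, 7 of 10 members had at least 1 ATG in the 5' leader, against 48.41% of 9639 tested genes. In 4 of 10 members (ATF4, ATF5, ATF3 and DDIT3) a reading frame opened in the leader ran past the start of the coding sequence, against 15.88% of the same genes. In ATF4-202, with a leader of 280 bases, the ATG at base 184 opened a frame of 59 codons that ended 83 bases inside the coding sequence. ATF5-201 had the same arrangement, with a leader of 377 bases and an ATG at base 254 that also opened 59 codons. The 30 bases around a chosen upstream start codon of 5 members, with the ATG in capitals, read 5' to 3' as follows (GRCh38, transcript strand, spliced for ATF4 and ATF5, where the interval spans an intron).
ATF4 (chr22:39520737-39521368, plus strand, ATG at base 184): ggcttaagccATGgcgcttctcacggcatt
ATF5 (chr19:49929386-49930746, plus strand, ATG at base 254): tgctgcagccATGgagtcttccactttcgc
ATF3 (chr1:212565387-212565416, plus strand, ATG at base 64): atgggatcagATGggaagatgtgacaagaa
DDIT3 (chr12:57520461-57520490, minus strand, ATG at base 38): tgagcgtatcATGttaaagatgagcgggtg
PPP1R15A (chr19:48872544-48872573, plus strand, ATG at base 163): tgagggtgagATGaacgcgctggcctccct

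The frame shown for ATF3 held 61 codons and ended 95 bases inside the coding sequence of ATF3-206, whose leader had 5 upstream ATGs in 154 bases. The frame shown for DDIT3 held 34 codons and closed within the leader of 180 bases, and a different frame, opened at base 149, was the overlapping one. PPP1R15A-201 had 2 upstream frames, of 22 and 26 codons, and both closed within its leader of 269 bases. The leaders of CEBPG-201 (662 bases) and TRIB3-201 (553 bases) had 3 upstream ATGs each with no frame reaching the coding start. CHAC1-204, CEBPB-201 and DDIT4-201, with leaders of 20, 300 and 201 bases, had 0. The count depended on the transcript: all 3 coding transcripts of ATF4 and all 3 of ATF5 had an overlapping frame, but 2 of 5 for DDIT3, 2 of 6 for ATF3 and 3 of 5 for CHAC1.

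**Figure D1:**
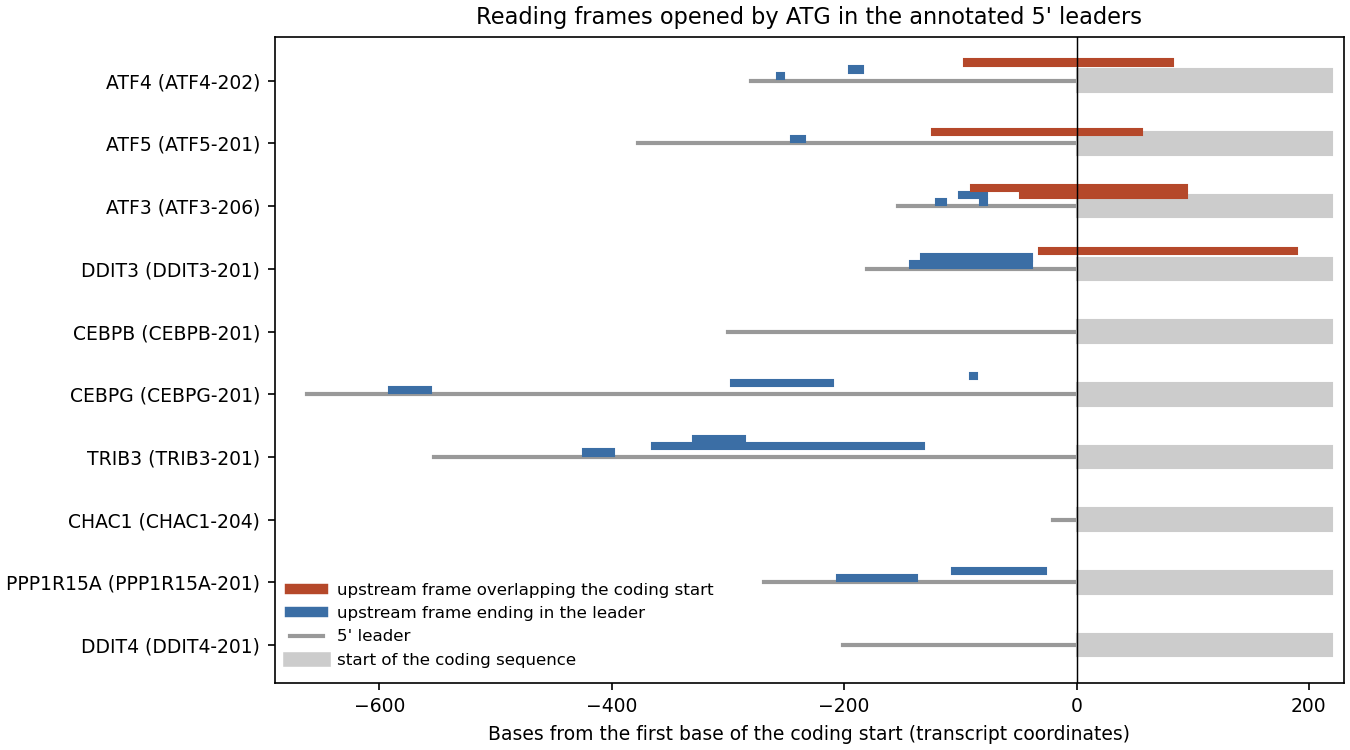
Upstream reading frames of the 10 members, 1 transcript per gene, on an axis of bases from the first base of the coding sequence. Red bars are frames that overlap the coding start (ATF4, ATF5, ATF3 and DDIT3), blue bars are frames that close within the leader, thin grey lines are leaders and grey boxes are the start of the coding sequence.

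In the RefSeq promoters (250 bases before to 50 after each start site, GRCh38.p14), which held all 10 members, motifs were searched on both strands. The C/EBP-ATF response element, at which ATF4 binds with a C/EBP partner, was written as TGATGNAA and was found in ATF3, CEBPG and CHAC1, which are 3 of 10 members, against 4.457% of 27305 genes with at least 1 promoter. The cAMP response element TGACGTCA was found in PPP1R15A and in 2.249% of those genes. The 27305 genes were not limited to genes tested here, and they held 35116 promoters. A member had between 1 and 3 promoters, and each further promoter gives a further chance of a match. The windows that hold these elements are shown because both are known recognition sequences of factors in the same pathway. Capitals mark the match, and the C/EBP-ATF match of CHAC1 lies on the opposite strand.
ATF3 (chr1:212565205-212565234, plus strand, 191 bases before the start site): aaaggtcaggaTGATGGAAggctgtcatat
CHAC1 (chr15:40953251-40953280, plus strand, 209 bases before the start site): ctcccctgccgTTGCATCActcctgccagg
CEBPG (chr19:33374060-33374089, plus strand, 42 bases before the start site): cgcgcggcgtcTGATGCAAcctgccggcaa
PPP1R15A (chr19:48872352-48872381, plus strand, 58 bases before the start site): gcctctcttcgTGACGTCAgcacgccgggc

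Of the other motifs searched, the AP-1 site TGANTCA was found in ATF5 and DDIT3 (9.368% of genes), the hypoxia response core ACGTG in ATF4 and DDIT4 (24.87%), and the CCAAT box in 6 of 10 members (39.72%). A match is a string of letters and not a shown binding site.

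The depth was 68872657 counts in the siVCP-labelled library and 72566092 in the siNC-labelled library. Because each group held 1 library, the spread between replicates is unknown, no test was run, and every difference is between these 2 libraries. Intervals in brackets are 95% intervals for counting error only. The targeted gene went against its label: VCP had an FPKM of 65.9 in the siVCP-labelled library and 47.7 in the siNC-labelled library, 1.38-fold higher [1.33 to 1.43]. A loss of VCP was therefore not seen in the RNA, and the difference was short of the 1.5-fold threshold used below. Whether the labels of the 2 libraries were exchanged was not tested. If they were, each direction given here would turn round, and each fold would become its inverse. The extraction protocol in the labels speaks of adipose RNA, which does not match the labelled myeloma line, so markers of both were read. The 10 plasma cell markers ranged in FPKM between 13.2 and 485 in the siVCP-labelled library and between 8.53 and 712 in the siNC-labelled library. Of 26 markers of T, myeloid, erythroid, stromal, epithelial and fat cells, 22 were under 1 in both libraries, and the highest, PPARG, had an FPKM of 7.64 and 8.84 in the siVCP-labelled and siNC-labelled libraries. The other fat cell markers, ADIPOQ, PLIN1, LEP and FABP4, were at 0 in both.

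The members differed in opposite directions between the libraries. On a log2 ratio scale, log2((FPKM siVCP + 1)/(FPKM siNC + 1)), ATF4, ATF5 and CHAC1 were at least 1.5-fold higher in the siVCP-labelled library, and DDIT3 and ATF3 were at least 1.5-fold lower. Those are 3 and 2 of 10 members, where 4.53% of all genes tested were higher and 5.87% lower by the same rule. The members were chosen with earlier results of these data known, so a larger share than that of all genes can follow from the choice. By plain FPKM ratio, 3 members were higher and 3 lower, DDIT4 being the added one, against 6.89% and 12.3% of all genes. The counting interval of the plain fold lay wholly above 1 for 4 members and wholly below 1 for 4, but at this depth it also did so for 28.5% and 32% of all genes tested, so an interval off 1 is common. The median log2 ratio of the members was -0.01, beside -0.02 over all genes tested, with 5 members on each side of 0. In bulk RNA, a difference in the number of cells that express a gene and a difference in RNA per cell cannot be told apart.

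**Figure D2:**
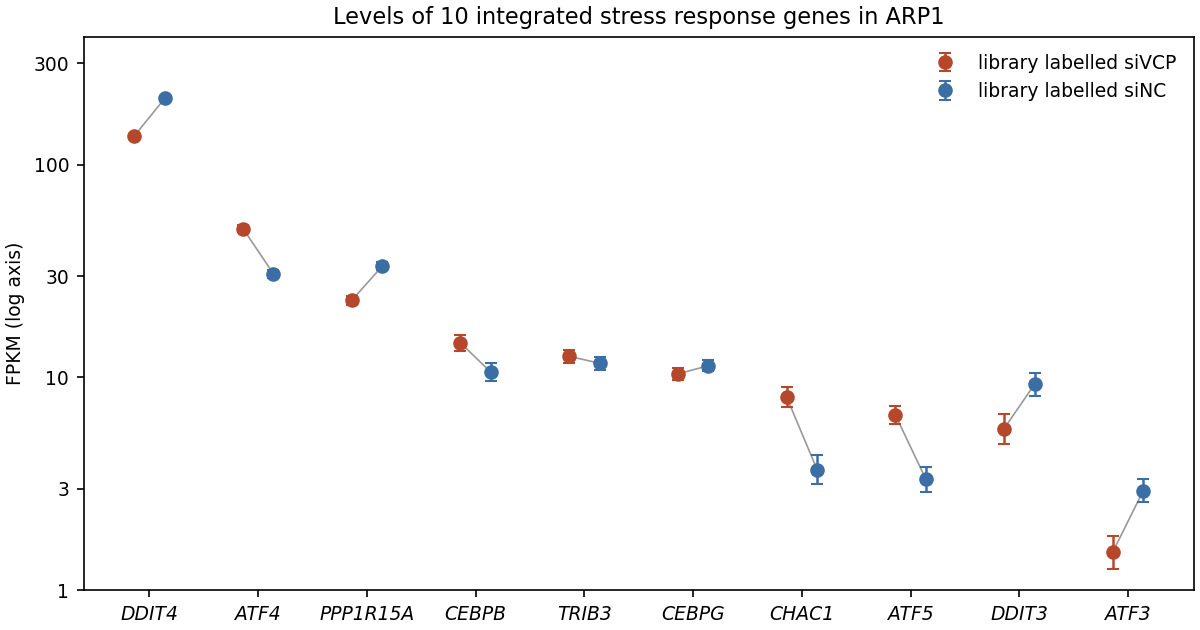
FPKM of the 10 members (log axis) in the siVCP-labelled library (red, left of each pair) and the siNC-labelled library (blue, right), with 95% counting intervals and a line joining each gene's values. ATF4, CEBPB, TRIB3, CHAC1 and ATF5 are higher in the siVCP-labelled library, and DDIT4, PPP1R15A, CEBPG, DDIT3 and ATF3 are lower there.

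ATF4, the transcription factor at the centre of the response (ENSG00000128272; chromosome 22, 39519672 to 39522683, plus strand, GRCh38), had an FPKM of 50.2 [48.4 to 52.0] in the siVCP-labelled library and 30.7 [29.4 to 32.1] in the siNC-labelled library. The library labelled siVCP was the high one, and the intervals were apart. The plain fold was 1.63 [1.54 to 1.73] and the log2 ratio 0.69, at percentile 97.0 of all genes tested. Tested genes of similar transcript length and GC content had a median log2 ratio of 0.15, which left ATF4 0.54 above them, just short of the 1.5-fold threshold (0.585 on this scale). The processed pseudogene ATF4P3, a copy that can share reads with its parent gene, had an FPKM of 2.38 and 1.16 in the siVCP-labelled and siNC-labelled libraries, a small level beside that of ATF4.

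ATF5, a related factor whose messenger has the same kind of upstream frames (ENSG00000169136; chromosome 19, 49928702 to 49933935, plus strand), had an FPKM of 6.67 [6.03 to 7.35] in the siVCP-labelled library and 3.33 [2.89 to 3.81] in the siNC-labelled library. It too was high in the siVCP-labelled library, with a plain fold of 2.004 [1.69 to 2.38] and a log2 ratio of 0.83. With a pseudocount of 5 the ratio was 0.49, under the threshold. Part of the gene overlaps IL4I1 and NUP62 on the opposite strand, which had an FPKM of 5.17 and 26.6 in the siVCP-labelled library and 5.23 and 28.9 in the siNC-labelled library. Neither neighbour was higher in the siVCP-labelled library. No source used here gives the strand setting, so reads from overlapping genes cannot be told apart.

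CHAC1, an enzyme that breaks down glutathione and a target of ATF4 (ENSG00000128965; chromosome 15, 40952962 to 40956512, plus strand), had an FPKM of 8.08 [7.25 to 8.99] in the siVCP-labelled library and 3.69 [3.15 to 4.30] in the siNC-labelled library. The plain fold was 2.19 [1.81 to 2.65], the highest of the 10, though its interval overlaps that of ATF5. The log2 ratio was 0.95, at percentile 98.8, and fell to 0.59 with a pseudocount of 5, where ATF4 stood higher at 0.63. Its counts were 1370 and 660 in the siVCP-labelled and siNC-labelled libraries. CHAC2, the constitutive relative that breaks down glutathione more slowly, had an FPKM of 5.11 in the siVCP-labelled library and 2.89 in the siNC-labelled library, a log2 ratio of 0.65. CHAC2 was looked up after the values were seen and is in none of the lists.

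DDIT3 encodes CHOP, a C/EBP family factor linked to cell death under prolonged stress (ENSG00000175197; chromosome 12, 57516588 to 57521737, minus strand). Its FPKM was 5.75 [4.88 to 6.73] in the siVCP-labelled library and 9.29 [8.21 to 10.5] in the siNC-labelled library. The library labelled siVCP was the low one and the intervals were apart. The plain fold was 0.619 [0.504 to 0.757], which is 1.62-fold lower, and the log2 ratio was -0.61, at percentile 5.24. This is close to the threshold: the ratio came to -0.584 after rescaling both libraries to the same FPKM sum and to -0.41 with a pseudocount of 5, both inside it. The ratio was further out after centring on transcript length and GC content, at -0.73, and with a pseudocount of 0.1, at -0.68. DDIT3 overlaps MARS1 by 982 bases and MBD6 by 1028 bases on the opposite strand. MARS1, the methionyl-tRNA synthetase, differed the other way, at 42.6 FPKM in the siVCP-labelled library and 34.0 in the siNC-labelled library. MBD6 had 8.43 FPKM in the siVCP-labelled library and 9.45 in the siNC-labelled library. Whether reads of these neighbours entered the DDIT3 value was not tested.

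ATF3, a bZIP factor induced by many stresses (ENSG00000162772; chromosome 1, 212565334 to 212620772, plus strand), was the lowest member in both libraries. It had an FPKM of 1.51 [1.26 to 1.80] in the siVCP-labelled library and 2.94 [2.59 to 3.32] in the siNC-labelled library. The plain fold was 0.515 [0.413 to 0.640], or 1.94-fold lower, and the log2 ratio was -0.65. At this low level the pseudocount shortens the ratio, and the value ran between -0.91 with a pseudocount of 0.1 and -0.29 with a pseudocount of 5. JDP2, a related bZIP repressor, had an FPKM of 1.84 in the siVCP-labelled library and 1.80 in the siNC-labelled library, so ATF3 made up 45.1% of the summed FPKM of the pair in the siVCP-labelled library and 62.1% in the siNC-labelled library.

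ATF4 and DDIT3 lie next to each other in the pathway, and their levels drew apart in the siVCP-labelled library. The pair was chosen with earlier results known, for its opposite directions, so this restates the single-gene differences. The other pairs given here likewise set a higher member against a lower one. ATF4 stood at 8.72 times the FPKM of DDIT3 in the siVCP-labelled library and at 3.31 times in the siNC-labelled library. The log2 ratios of the pair differed by 1.298, and by 1.27 after subtracting the median of genes of similar length and GC content. Against ATF3, ATF4 stood at 33.1 times in the siVCP-labelled library and 10.5 times in the siNC-labelled library. CHAC1 was above DDIT3 in the siVCP-labelled library (1.41 times its FPKM) and below it in the siNC-labelled library (0.397 times), with counting intervals apart in both. ATF5 stood at 1.16 times the FPKM of DDIT3 in the siVCP-labelled library, where their intervals overlapped, and at 0.358 times in the siNC-labelled library.

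**Figure D3:**
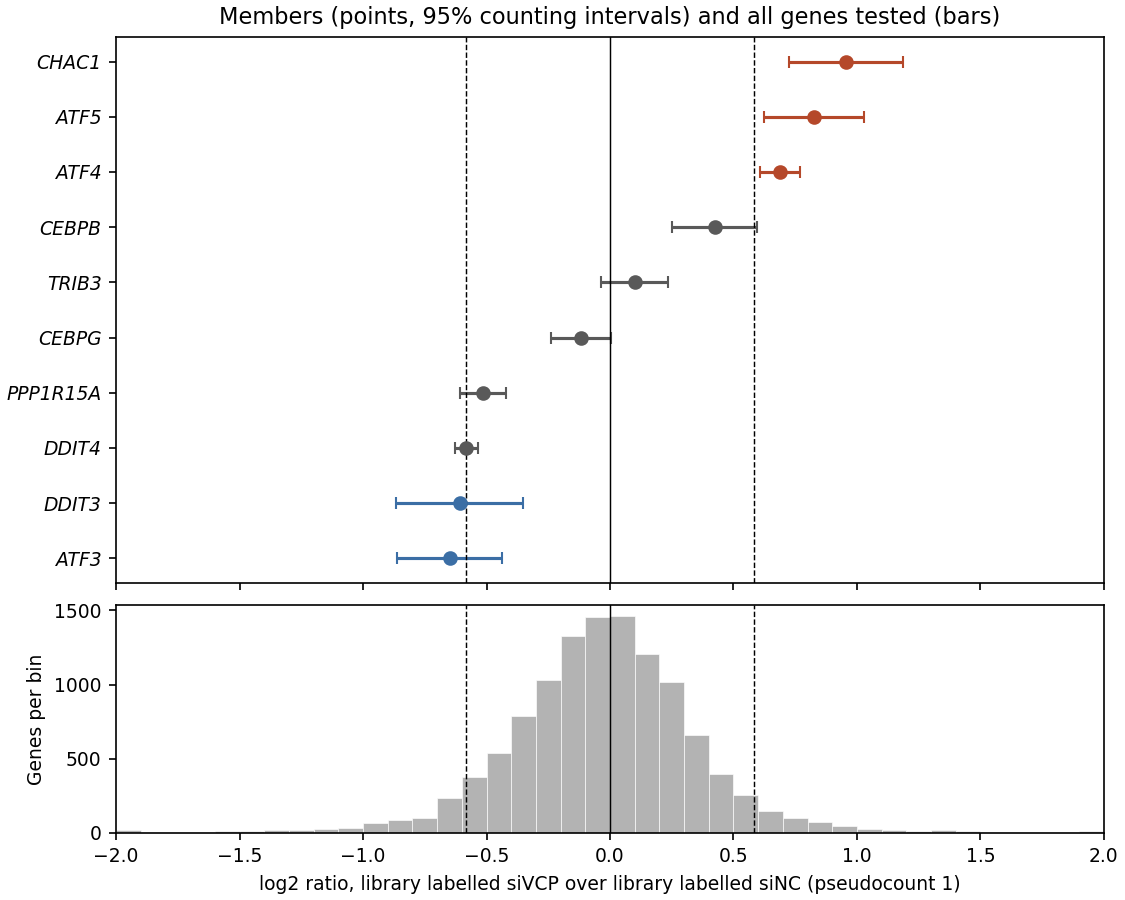
Log2 ratio of each member (points, with 95% counting intervals) above the histogram of all 11645 genes tested (lower panel, genes per bin of 0.1), with dashed lines at 1.5-fold. ATF4, ATF5 and CHAC1 (red) lie beyond the upper line, DDIT3 and ATF3 (blue) beyond the lower line, and DDIT4 just inside it.

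PPP1R15A and DDIT4 were both lower in the siVCP-labelled library, while TRIB3, described below, differed little. PPP1R15A, whose product GADD34 brings protein phosphatase 1 to eIF2alpha (ENSG00000087074; chromosome 19, 48872421 to 48876058, plus strand), had an FPKM of 23.0 [21.9 to 24.2] in the siVCP-labelled library and 33.3 [32.0 to 34.8] in the siNC-labelled library. The intervals were apart, the plain fold was 0.691 [0.646 to 0.738] and the log2 ratio was -0.51, inside the 1.5-fold threshold. PPP1R15B, the constitutive form, had an FPKM of 12.3 in the siVCP-labelled library and 15.4 in the siNC-labelled library, a log2 ratio of -0.30. The inducible form made up 65.1% of the summed FPKM of both in the siVCP-labelled library and 68.4% in the siNC-labelled library.

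DDIT4 encodes REDD1, which restrains the growth kinase complex mTORC1 under stress (ENSG00000168209; chromosome 10, 72273924 to 72276036, plus strand). It was the highest member in both libraries, with an FPKM of 137 [133 to 140] in the siVCP-labelled library and 205 [201 to 209] in the siNC-labelled library. The plain fold was 0.666 [0.645 to 0.689], or 1.501-fold lower, and the log2 ratio of -0.58 fell just inside the threshold. Genes of similar length and GC content had a median log2 ratio of 0.15 for both DDIT4 and PPP1R15A. Set against that median, DDIT4 stood at -0.73 and PPP1R15A at -0.66, both past the threshold. DDIT4 carries much of the summed level of the members: the sum was 269 FPKM in the siVCP-labelled library and 322 in the siNC-labelled library, but 133 and 117 without DDIT4 in the siVCP-labelled and siNC-labelled libraries.

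TRIB3, a pseudokinase that ATF4 and CHOP induce and that binds both ATF4 and AKT (ENSG00000101255; chromosome 20, 362835 to 397559, plus strand), differed little. It had an FPKM of 12.6 [11.7 to 13.5] in the siVCP-labelled library and 11.7 [10.9 to 12.5] in the siNC-labelled library, with overlapping intervals. The plain fold was 1.08 [0.974 to 1.19]. Of its relatives, TRIB1 had an FPKM of 61.6 in the siVCP-labelled library and 61.7 in the siNC-labelled library, and TRIB2 had 31.1 and 41.6 in the siVCP-labelled and siNC-labelled libraries.

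Of the C/EBP partners among the members, CEBPB was higher and CEBPG differed little, both inside the 1.5-fold threshold. CEBPB, which pairs with ATF4 and with CHOP (ENSG00000172216; chromosome 20, 50190830 to 50192668, plus strand), had an FPKM of 14.5 [13.4 to 15.8] in the siVCP-labelled library and 10.6 [9.60 to 11.6] in the siNC-labelled library. It was higher in the siVCP-labelled library by 1.37-fold [1.21 to 1.56], a log2 ratio of 0.42, under the threshold. Its antisense gene CEBPB-AS1 stayed at 0.169 FPKM in the siVCP-labelled library and 0.177 in the siNC-labelled library. CEBPG, a short C/EBP protein that dimerises with ATF4 (ENSG00000153879; chromosome 19, 33373685 to 33382686, plus strand), had an FPKM of 10.4 [9.71 to 11.1] in the siVCP-labelled library and 11.4 [10.7 to 12.1] in the siNC-labelled library. These intervals overlapped, and the plain fold was 0.915 [0.834 to 1.003].

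The summed FPKM of the C/EBP family was close between libraries, at 34.5 in the siVCP-labelled library and 33.3 in the siNC-labelled library, while its makeup differed. CEBPB made up 42.2% of the sum in the siVCP-labelled library and 31.8% in the siNC-labelled library. CHOP's gene DDIT3 made up 16.7% in the siVCP-labelled library and 27.9% in the siNC-labelled library. The share of CEBPG was 30.1% in the siVCP-labelled library and 34.1% in the siNC-labelled library. CEBPD and CEBPA were minor parts, and CEBPE was listed at 0 in both libraries. Like CEBPB, CEBPD and CEBPA were higher in the siVCP-labelled library but under the threshold, at log2 ratios of 0.45 and 0.57. CEBPA was under FPKM 1 in the siNC-labelled library. The grouping of the family was made after the values were seen.

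**Figure D4:**
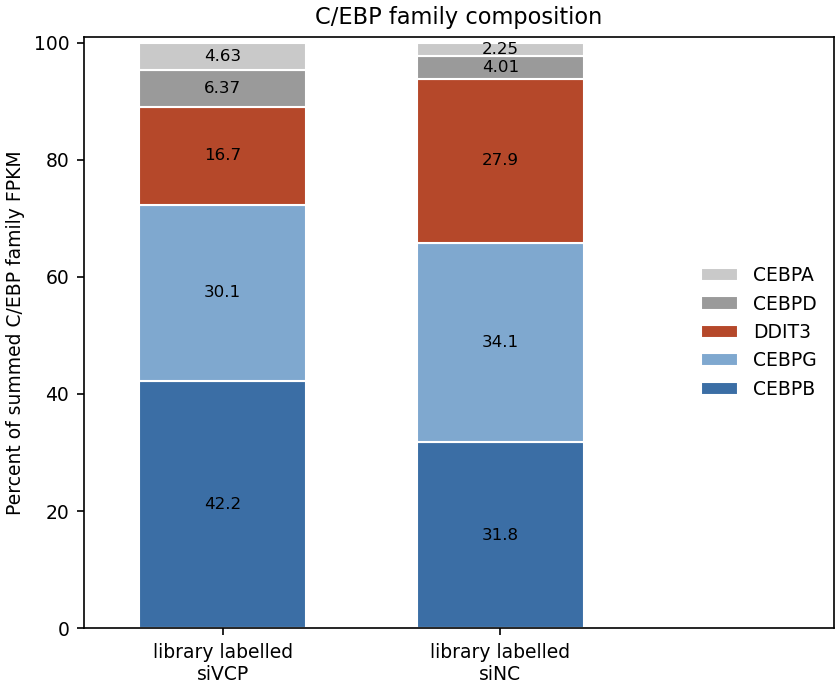
Percent of the summed FPKM of the C/EBP family taken by each gene in the siVCP-labelled library (left) and the siNC-labelled library (right). DDIT3 takes 16.7% in the siVCP-labelled library and 27.9% in the siNC-labelled library, and CEBPB takes 42.2% in the siVCP-labelled library and 31.8% in the siNC-labelled library.

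The order of the members by level shifted with these differences. From high to low it ran DDIT4, ATF4, PPP1R15A, CEBPB, TRIB3, CEBPG, CHAC1, ATF5, DDIT3 and ATF3 in the siVCP-labelled library. In the siNC-labelled library it ran DDIT4, PPP1R15A, ATF4, TRIB3, CEBPG, CEBPB, DDIT3, CHAC1, ATF5 and ATF3. Neighbours whose counting intervals overlapped, so that their order is not resolved, were CEBPB with TRIB3, CHAC1 with ATF5 and ATF5 with DDIT3 in the siVCP-labelled library. In the siNC-labelled library they were PPP1R15A with ATF4, TRIB3 with CEBPG, CEBPG with CEBPB, CEBPB with DDIT3, CHAC1 with ATF5, and ATF5 with ATF3. Among all genes tested, ATF4 was the 784th highest in the siVCP-labelled library and the 1243rd in the siNC-labelled library. DDIT3 was the 5340th in the siVCP-labelled library and the 3831st in the siNC-labelled library.

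Shared sequence features were found on both sides of the split. In the 1 transcript chosen per gene, frames overlapping the coding start were found in ATF4 and ATF5, which were higher in the siVCP-labelled library. They were also found in DDIT3 and ATF3, which were lower. Among all coding transcripts, 2 of 5 for DDIT3 and 2 of 6 for ATF3 had such a frame, and so did 3 of 5 for CHAC1. Which transcripts were expressed was not looked at. The C/EBP-ATF response element was found in CHAC1, which was higher in the siVCP-labelled library, in ATF3, which was lower, and in CEBPG, which passed neither threshold. The AU-rich word TATTTAT, a motif linked to rapid messenger decay, was found in the 3' UTR of ATF3, DDIT3, PPP1R15A and CHAC1, against 28.32% of 9639 genes. Of those 4, ATF3 and DDIT3 passed the threshold as lower in the siVCP-labelled library and CHAC1 as higher, and PPP1R15A, at a log2 ratio of -0.51, passed neither.

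Other genes of the pathway were counted in 8 lists, which together held 142 genes, 128 of them tested. Of the 128, 5 (3.91%) were at least 1.5-fold higher and 6 (4.69%) at least 1.5-fold lower in the siVCP-labelled library, near the shares of all genes, with a median log2 ratio of -0.01.

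Upstream of ATF4, none of the 10 eIF2alpha kinases and their regulators passed the threshold. Of the 10, 9 had log2 ratios below 0, against 52.8% of all genes tested, and the median was -0.21. That median came to -0.11 with a pseudocount of 5 and to -0.14 after centring on transcript length and GC content. The lowest were DNAJC3, an inhibitor of PERK and PKR, at 5.28 FPKM in the siVCP-labelled library and 7.66 in the siNC-labelled library (log2 ratio -0.46), and the kinase HRI (EIF2AK1) at 50.4 and 65.1 FPKM in the siVCP-labelled and siNC-labelled libraries. The highest were GCN1, the activator of GCN2, at a log2 ratio of 0.16, and GCN2 itself (EIF2AK4) at -0.14. Among 14 genes of eIF2, its exchange factor eIF2B and the phosphatase, 0 passed the threshold and 9 were above 0, with a median of 0.07. The eIF2B subunits EIF2B4, at 12.8 FPKM in the siVCP-labelled library and 8.23 in the siNC-labelled library, and EIF2B5, at 20.7 and 13.9 in the siVCP-labelled and siNC-labelled libraries, had the highest log2 ratios of this list (0.58 and 0.54). EIF2A, a separate initiation factor, had the lowest at -0.50, followed by PPP1R15B.

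Targets of ATF4 in amino acid supply had ratios on both sides of 0, and of 22 tested SLC7A5 alone was at least 1.5-fold higher, as ATF4 was. Of 13 amino acid synthesis genes, 0 passed the threshold, 8 were above 0, and the median log2 ratio was 0.18. PSAT1 and PSPH, enzymes of serine synthesis, were highest, at 70.6 and 16.0 FPKM in the siVCP-labelled library and 51.4 and 11.6 in the siNC-labelled library. MTHFD2, of mitochondrial folate metabolism, was lowest at a log2 ratio of -0.42, followed by ALDH1L2 at -0.11. Of 11 transporters, 9 were tested. The leucine carrier SLC7A5 was higher, at 174 FPKM in the siVCP-labelled library and 112 in the siNC-labelled library (1.56-fold [1.53 to 1.60]), next to its heavy chain SLC3A2, at 44.4 and 31.0 in the siVCP-labelled and siNC-labelled libraries. SLC1A4, a carrier of small neutral amino acids, was lower, at 17.9 FPKM in the siVCP-labelled library and 35.8 in the siNC-labelled library (0.501-fold [0.478 to 0.526]), and SLC38A2 followed at a log2 ratio of -0.33. The median of the transporters was -0.03.

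Of 20 cytosolic aminoacyl-tRNA synthetases, many of them ATF4 targets, 0 passed the threshold and 11 were above 0, with a median of 0.06. FARSA (log2 ratio 0.54) and HARS1 (0.42) were highest, and EPRS1 (-0.37) and LARS1 (-0.28) lowest. Of 20 stress output genes of CHOP and ATF4, 15 were tested, 1 was higher, 2 were lower and the median was -0.05. ADM2, a peptide hormone gene, had an FPKM of 13.0 in the siVCP-labelled library and 7.06 in the siNC-labelled library, and INHBE, an activin subunit gene, followed at a log2 ratio of 0.38. BBC3, the gene of the death protein PUMA, had 3.37 FPKM in the siVCP-labelled library and 6.34 in the siNC-labelled library. KLHL24 had 1.31 FPKM in the siVCP-labelled library and 3.43 in the siNC-labelled library.

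Of 37 bZIP genes whose products can pair with or resemble ATF4, CHOP and C/EBP proteins, 31 were tested, 3 were higher and 2 lower, with a median of -0.01. MAFK, a small MAF protein that serves as partner of other bZIP factors, had the highest ratio, at 8.12 FPKM in the siVCP-labelled library and 2.61 in the siNC-labelled library (3.11-fold [2.69 to 3.60]). FOSL1, at 2.66 and 1.11 FPKM in the siVCP-labelled and siNC-labelled libraries, and NFE2L1, the activator of proteasome genes, at 40.9 and 25.4, were the other two. MAF had 48.5 FPKM in the siVCP-labelled library and 90.9 in the siNC-labelled library, and CREB1 0.608 and 1.77 in the siVCP-labelled and siNC-labelled libraries. CREB1 passed the filter of FPKM 1 only through the siNC-labelled library, where it was high, so the filter favoured its call as lower.

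DDIT4 acts on mTORC1, and the last list holds parts of this complex, its regulators and its substrates. Of its 17 genes, 16 were tested, 0 were higher and 1 was lower, with a median of -0.05. The lower gene was SESN3, a sestrin, at 3.22 FPKM in the siVCP-labelled library and 5.51 in the siNC-labelled library, followed by the mTOR inhibitor DEPTOR at 20.6 and 31.2 in the siVCP-labelled and siNC-labelled libraries. EIF4EBP1, the translation repressor that mTORC1 switches off, was highest, at 166 FPKM in the siVCP-labelled library and 125 in the siNC-labelled library, followed by AKT1S1 at a log2 ratio of 0.39. SESN2, the sestrin that ATF4 induces, was looked at after the values were seen and had 30.7 FPKM in the siVCP-labelled library and 24.0 in the siNC-labelled library.

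**Figure D5:**
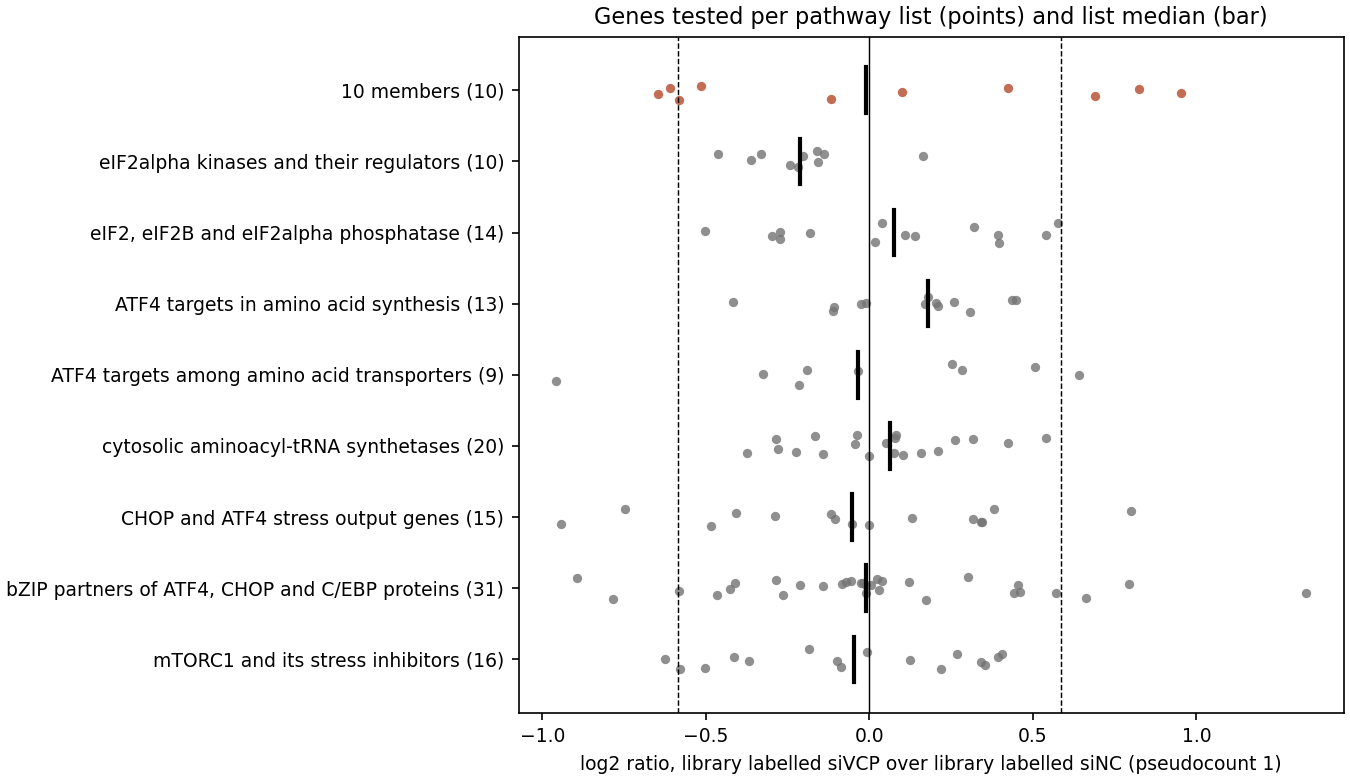
Log2 ratio of each tested gene (points) and the median (bar) for the 10 members and 8 pathway lists, with the number of genes in parentheses and dashed lines at 1.5-fold. List medians lie between -0.21 and 0.18, and the members spread past both dashed lines.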

How the data were processed

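The labels name the cell line ARP1, while their extraction protocol speaks of adipose RNA. Paired-end libraries were made from poly(A) RNA, per the labels' protocols. The authors deposited 1 gene table with an FPKM and an estimated count for either library. HISAT2 2.0 and StringTie 1.3.0 are listed in the submitters' processing notes, with no role or order. Genome build, annotation and strandedness are not given in the sources used here. The FPKM normalization is the authors', and a row whose count was 0 was given an FPKM of 0. Deposited counts pile up at multiples of 4 (1205 rows at 4, 417 at 3 and 244 at 5 in the siVCP-labelled library), so intervals were computed from counts divided by 4, an inference. For 58 tested genes with a count that rounds to 0 fragments in a library no interval was computed. They are exact Poisson intervals for levels and exact conditional binomial intervals for folds, at 95%. No source names molecular identifiers, so fragments may be PCR copies and the intervals cover counting error only.

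Rows sharing a symbol were summed, genes under FPKM 1 in both libraries were left out, and no test was run because each group held 1 library. Members and lists were chosen with earlier results of these data known. Named genes are the members, VCP, the 2 highest and 2 lowest log2 ratios of each list, and any other list member past 1.5-fold. Neighbours, relatives and markers were named in addition. Gene intervals of the members come from the deposited table, and GRCh38 is inferred for them. They need not match the ends of the transcripts used for the leaders. Leaders, the windows on upstream start codons and 3' UTRs come from GENCODE 29 (GRCh38). There, 1 transcript per gene was chosen by APPRIS level, support level and then the shortest. Promoters come from RefSeq (GRCh38.p14). For centring, length and GC content were those of the longest coding transcript of each gene. They were binned 6 ways each, which covered 82.8% of tested genes. The log2 ratio, the calls and the counting interval were tried on simulated fragments with counting error only, at the same 4 counts per fragment. That trial could not check the 4 counts per fragment, PCR copies or the spread between libraries. Alternatives were other pseudocounts, filters, scalings, thresholds, row choices and CPM from the counts. The scripts ran under Python 3.11.15 with pandas 2.3.3, numpy 2.4.6, matplotlib 3.10.9 and scipy 1.17.1.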

Additional observations from a re-analysis of the deposited data

How the results depend on the processing

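With 1 library per group no library could be left out. No paired analysis was possible because there is a single library on each side. The sign of each member's log2 ratio was the same under every alternative run. On the log2 ratio scale with a pseudocount of 1, the 3 higher members became 0 at a threshold of 2-fold and the 2 lower members also 0. The looser threshold tried gave 4 higher and 4 lower. By plain FPKM fold, CHAC1 (2.19 [1.81 to 2.65]) and ATF5 (2.004 [1.69 to 2.38]) were above 2-fold, with intervals that reach below it. The largest plain fold the other way was that of ATF3, 1.94-fold lower. Higher members were 2 with a pseudocount of 5, after centring on length and GC content, and without genes overlapping on the same strand. Lower members were 0 with a pseudocount of 5, 1 with a filter at FPKM 5 (ATF3 not tested) and 1 after rescaling to the same FPKM sum. They were 1 without genes overlapping on the same strand (ATF5 and DDIT3 not tested) and 4 after centring. The overlap setting left out ATF5 for MIR4751 and DDIT3 for MIR616 and AC022506. It did not address the neighbours on the opposite strand. All genes higher and lower numbered 163 and 141 of 11645 at pseudocount 5, and 328 and 288 of 6245 with the filter at FPKM 5. They numbered 122 and 153 of 11645 at 2-fold, and 1621 and 2135 of 11645 at the looser threshold. After centring they numbered 302 and 345 of 9639, and after rescaling to the same FPKM sum 586 and 629 of 11675. A pseudocount of 0.1 gave 770 higher and 1351 lower of 11645. Leaving out overlapping genes gave 336 higher and 467 lower of 8778. At the filter of FPKM 5 the median of the transporters was -0.11 and that of the mTORC1 list 0.11, which was also above 0 without overlapping genes (0.058) and after centring (0.022). Without overlapping genes the median of the stress output genes was 0.065. Medians of the members, transporters, synthetases and bZIP partners lie near 0 and also changed sign in some settings, to 0.10 for the members with the filter at FPKM 5, 0.016 for the transporters after centring, and -0.00018 for the synthetases and 0.023 for the bZIP partners without overlapping genes. The causes were not tested. Depth limits ATF3, DDIT3, CHAC1 and ATF5 most, the members with the fewest counts.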
